A study of Rattus norvegicus with 40 samples.

Results

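The genes described here are 10 immediate early genes of the rat, Egr1, Jun, Junb, Fos, Maff, Atf3, Myc, Ier2, Ier3 and Gadd45b. Each was read from the array row whose only platform gene symbol was that of the gene. Each gene had 1 such row, so no choice between rows arose. They are 10 of the 14497 genes with a row of their own symbol, and all 10 passed the filter on dim rows, as did 10203 genes in all. The members were given as a list of symbols.

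Immediate early genes are transcribed within minutes of a growth factor, cytokine, hormone or stress signal, from factors already present in the cell and without new protein synthesis. Their mRNAs and proteins are short-lived, so that their levels follow the recent history of the tissue. In liver they are known for a rapid rise after loss of liver mass, after feeding and after handling or injury. Egr1 encodes a zinc finger transcription factor, Jun, Junb and Fos encode subunits of the AP-1 transcription factor, and Maff encodes a small Maf protein that pairs with related leucine zipper factors. Atf3 encodes a stress-induced repressor of the CREB/ATF family, Myc a regulator of growth and ribosome synthesis, and Gadd45b a stress sensor acting on MAP kinases. Ier2 and Ier3 were named for their immediate early response, and Ier3 is tied to cell survival.

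The study hybridised RNA from 20 livers of Sprague Dawley rats to 40 arrays (Affymetrix Rat Gene 1.0 ST), in 3 models. Adult rats of 125 to 150 g were fasted for 48 h, injected with the solvent DMSO or with rapamycin, an inhibitor of the kinase mTOR, at 250 µg per 100 g of body weight, refed 60 min later and killed after 3 h of feeding (the refed model). Other adults of the same weight were injected in the same way 1 h before a partial hepatectomy, in which surgeons take out most liver lobes, and killed 24 h after it. Fetuses were injected on gestation day 19 with DMSO or 50 µg of rapamycin and killed 24 h later, on day 20. Each liver gave polysome RNA, from mRNAs carrying several ribosomes, and total RNA. This made 12 groups, with n = 3 livers in each adult group and n = 4 in each fetal one. No uninjected liver was analysed here, so every difference is between injected animals. The labels call the arrays biological replicates, speak of pooled polysomes but do not say of what, and give the hepatectomy polysome DMSO arrays a refeeding time point, against their titles, which were followed.

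The promoters of 5 of the 10 genes, Egr1, Junb, Ier2, Gadd45b and Maff, were found in a RefSeq promoter table of the rat assembly GRCr8. Of these, 4 are shown, without Egr1, and the letters let a reader see what their upstream sequences share. Each is the 250 bases before the annotated start, 5′ to 3′ in the direction of the gene. The Gadd45b window lies at chr7:9430719-9430968 on the minus strand and the Maff window at chr7:112792537-112792786 on the plus strand. The Junb and Ier2 windows lie at chr19:40080876-40081125 and chr19:40399123-40399372, both on the plus strand. Capitals mark matches to the motifs searched on both strands.
Gadd45b: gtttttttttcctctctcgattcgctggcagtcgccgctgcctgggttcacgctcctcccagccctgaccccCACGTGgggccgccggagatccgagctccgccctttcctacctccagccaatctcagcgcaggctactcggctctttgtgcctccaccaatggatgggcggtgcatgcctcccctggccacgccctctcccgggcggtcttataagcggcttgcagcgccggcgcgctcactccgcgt
Maff: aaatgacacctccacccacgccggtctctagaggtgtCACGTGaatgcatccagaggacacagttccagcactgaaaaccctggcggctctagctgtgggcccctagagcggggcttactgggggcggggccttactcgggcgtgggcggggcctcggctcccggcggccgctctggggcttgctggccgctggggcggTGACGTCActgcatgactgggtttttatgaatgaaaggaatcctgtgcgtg
Junb: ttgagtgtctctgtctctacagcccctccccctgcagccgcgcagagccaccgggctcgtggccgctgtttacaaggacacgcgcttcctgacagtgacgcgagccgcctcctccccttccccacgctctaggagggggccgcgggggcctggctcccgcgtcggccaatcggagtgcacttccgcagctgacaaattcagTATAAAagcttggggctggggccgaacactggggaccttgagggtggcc
Ier2: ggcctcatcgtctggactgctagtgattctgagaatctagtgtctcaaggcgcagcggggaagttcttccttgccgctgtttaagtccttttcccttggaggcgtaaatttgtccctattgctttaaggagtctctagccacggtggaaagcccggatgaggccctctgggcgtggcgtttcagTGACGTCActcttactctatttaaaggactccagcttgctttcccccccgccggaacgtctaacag

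The cAMP response element TGACGTCA, bound by CREB/ATF proteins, was found in the Maff window (51 to 44 bases before the start) and in the Ier2 window (66 to 59 bases before it). It was found in 1.59% of the 33469 windows of that length in the table. The E-box CACGTG, a motif of MYC and related proteins, was found in the Gadd45b window at 178 to 173 bases and in the Maff window at 213 to 208 bases before the start, and in 5.59% of all windows. The TATA motif TATAAA was found in the Junb window at 49 to 44 bases before the start, and in 12.9% of all windows. The Egr1 window, which is not printed, held the CArG box of serum response factor at 105 to 96 and at 83 to 74 bases before the start, against 1.5% of all windows with at least 1. The AP-1 motif TGANTCA, found in 6.34% of windows, was in none of the 5. No match overlapped another, and no motif was present in all 5 windows. A match describes the letters only, and binding was not measured.

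Across all arrays the median log2 intensity was 7.09 to 7.40, and any 2 arrays differed by a root mean square of at least 0.233, so that no array repeated another. The mean of 7 hepatocyte markers was 13.78 to 14.03 on every array, in keeping with the tissue label. Fetal livers, which also make blood, had a mean of 11.64 to 12.57 for 6 erythroid markers and 10.07 to 11.17 for 7 granulocyte markers, against 7.21 to 8.83 and 5.88 to 6.58 in adult livers. In whole tissue, fewer cells of a type and less RNA per cell cannot be told apart. All values below are log2 intensities on the array, differences are log2 differences with their standard error (SE), and levels of different genes are not compared because each row has its own probes. A gene is called when its limma p, adjusted by the Benjamini-Hochberg method over all 10860 rows tested, is under 0.05. Where a comparison is given without a single liver, only its array in the RNA fraction compared was left out.

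**Figure D1:**
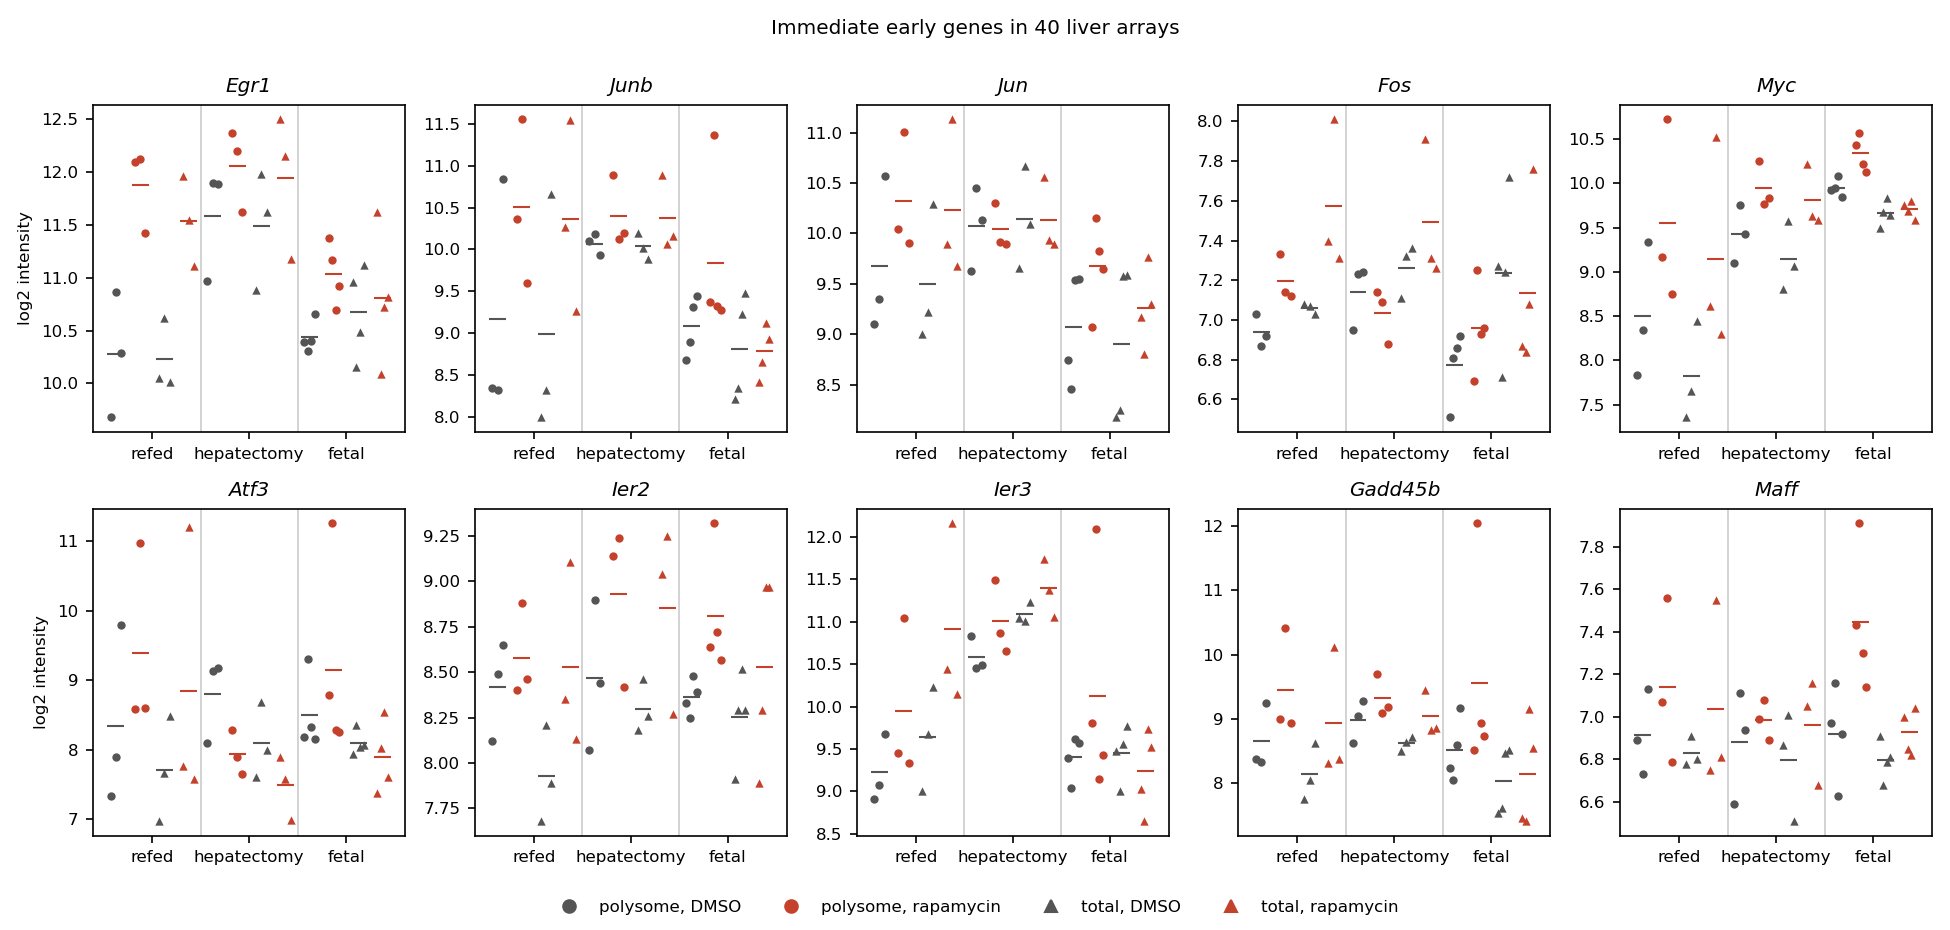
Log2 intensity (vertical axis) of each gene on every array, by model (horizontal axis), with circles for polysome RNA, triangles for total RNA, dark grey for DMSO and red for rapamycin; short lines are group means. Single livers stand far above their groups for several genes, such as refed rapamycin liver 2 and, in polysome RNA alone, fetal rapamycin liver 2.

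The mean level of Egr1 over the 12 groups ran from 10.23 ± 0.34 (SD, n = 3) in refed total DMSO to 12.07 ± 0.39 (SD, n = 3) in hepatectomy polysome rapamycin. That of Myc ran from 7.83 ± 0.56 (SD, n = 3) in refed total DMSO to 10.34 ± 0.20 (SD, n = 4) in fetal polysome rapamycin, a span of 2.51 and the widest of the 10 genes. The other spans between the highest and lowest group mean were 2.17 for Ier3, 1.90 for Atf3, 1.72 for Junb, 1.52 for Gadd45b, 1.42 for Jun, 1.01 for Ier2, 0.80 for Fos and 0.65 for Maff. Fos and Maff were dim throughout, with means of 7.14 and 6.97 over all arrays against the filter at 6.70. When the 12 groups were ordered by mean, all 11 neighbouring pairs overlapped in their single arrays for 9 of the genes. The exception was Myc, for which fetal polysome rapamycin stood clear of the next group, fetal polysome DMSO. Averaged over the 10 genes after centring each on its own mean, the refed total DMSO group was lowest (-0.61) and the refed polysome rapamycin group highest (0.40).

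The spread between livers of 1 group was wide and was shared among the genes. Refed rapamycin liver 2 was the highest of its 3 livers for 9 of the 10 genes in polysome RNA and for 9 in total RNA, with a mean deviation from the group mean of 0.75 and 0.98. Refed DMSO liver 3 was the highest of its 3 for 8 genes in polysome RNA and 6 in total RNA, with mean deviations of 0.63 and 0.46. Hepatectomy rapamycin liver 1 was the highest of its 3 for 8 genes in each fraction, with smaller mean deviations of 0.29 and 0.38. These livers stood out in both of their RNA preparations. In polysome and total RNA, the mean deviation of the 10 genes exceeded the deviation of 98.6% and 98.7% of all rows in refed rapamycin liver 2. The same shares were 96.0% and 93.2% in refed DMSO liver 3, and 98.5% and 99.2% in hepatectomy rapamycin liver 1. Over all 10860 rows, the root mean square deviation from the group mean was also highest in refed DMSO liver 3 (0.341 in polysome and 0.383 in total RNA, where the other 2 livers had 0.204 to 0.207 and 0.271 to 0.330) and in refed rapamycin liver 2 (0.243 and 0.345, where the others had 0.163 to 0.202 and 0.204 to 0.236). In hepatectomy rapamycin liver 1 it was the lowest of its group in both fractions. Refed rapamycin liver 2 had the highest granulocyte level of its group (6.45 in polysome RNA against 6.08 and 6.28, and 6.54 in total RNA against 6.12 and 6.13) and the lowest macrophage level (in polysome RNA under the 10.28 and 10.36 of the others, and in total RNA 10.12 against 10.18 and 10.35). All of these granulocyte means lay under the filter for dim rows at 6.70. The part of these cell types in the spread was not tested. The refed livers also stood high for 25 other tested immediate early genes, a list of textbook members of the class. Refed rapamycin liver 2 was the highest for 16 of them in polysome and 18 in total RNA, and refed DMSO liver 3 for 18 and 20. For none of these counts of highest livers was the share over all rows computed.

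Fetal rapamycin liver 2, whose fractions were matched by replicate number, differed between them. Its polysome array was the highest of 4 for 9 of the 10 genes, with a mean deviation of 1.02, while its total RNA array was the highest for 0 and had a mean deviation of -0.31. Gadd45b, the stress sensor, was at 8.52, 12.04, 8.93 and 8.73 in the fetal polysome rapamycin arrays 1 to 4, and at 7.45, 7.41, 9.16 and 8.55 in the same-numbered total RNA arrays. Ier3 was at 9.81, 12.09, 9.15 and 9.43 in polysome RNA, and at 9.03, 8.65, 9.74 and 9.52 in total RNA. In both genes array 2 was the highest of its polysome group and the lowest of its total RNA group. Atf3 was at 8.79, 11.26, 8.28 and 8.25 in polysome RNA and at 7.38, 8.03, 8.54 and 7.60 in total RNA, and Junb at 9.37, 11.36, 9.32 and 9.28 against 8.42, 8.66, 9.12 and 8.93. Egr1 did not follow: its polysome values were 11.38, 11.17, 10.69 and 10.92, with liver 1 highest. On the polysome array of liver 2 the deviations of Gadd45b, Atf3, Ier3 and Junb ranked 9, 16, 24 and 48 among 10860 rows, and that of Egr1 ranked 2890. The mean of 9 macrophage markers on that array was 9.85 against 9.59 to 9.67 on the other 3, and that of 7 granulocyte markers was 10.33 against 10.56 to 10.79. The part of these cell types in the result was not tested.

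**Figure D2:**
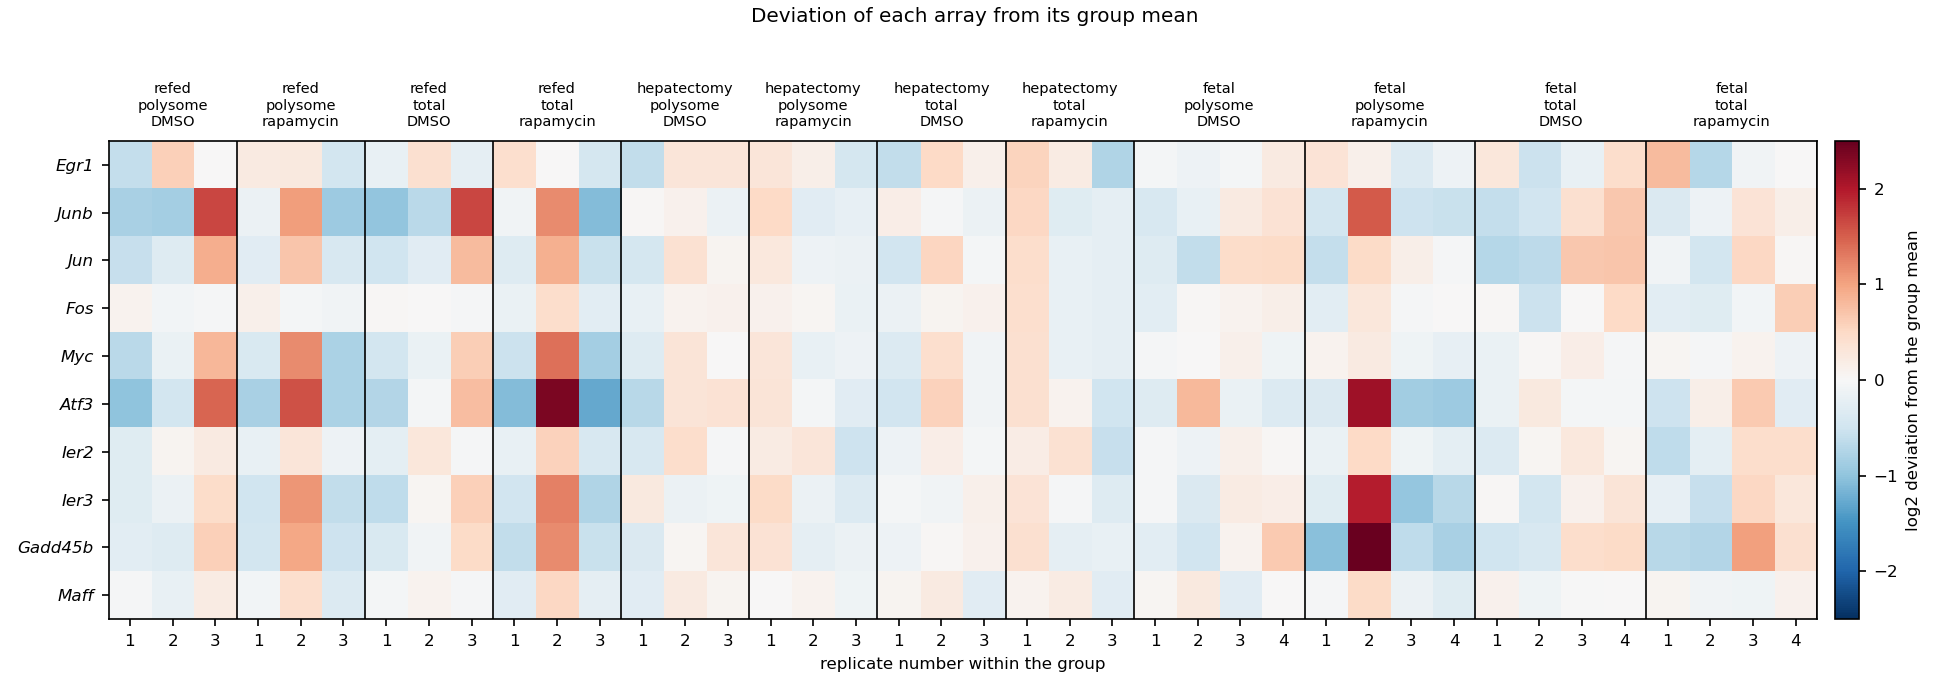
Colour gives the log2 deviation of each gene (rows) on each array (columns, by replicate number within the group) from the mean of its group. Red columns run through most genes in refed DMSO 3 and refed rapamycin 2 in both fractions, and in fetal rapamycin 2 in polysome RNA alone.

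The agreement of both fractions of a liver was described gene by gene as Pearson's r between polysome and total deviations over 20 livers, which share the liver and the normalization and are given without a test. In the 12 adult livers r was 0.99 for Junb, 0.98 for Jun and Myc, 0.95 for Gadd45b, 0.94 for Ier3, 0.90 for Atf3, 0.86 for Egr1, 0.81 for Ier2, 0.59 for Maff and 0.32 for Fos. In the 8 fetal livers it was 0.63 for Jun, 0.48 for Egr1, 0.38 for Myc and from -0.64 (Ier3) to 0.18 (Atf3) for the other 7. Without fetal rapamycin liver 2 the fetal value was 0.87 for Jun, 0.78 for Egr1, 0.56 for Myc, 0.55 for Junb, 0.34 for Fos and 0.31 for Gadd45b. It was 0.09 for Atf3, 0.05 for Ier2, -0.25 for Ier3 and -0.31 for Maff. That liver thus set much of the fetal figure for some genes, and others stayed low without it. Over all 20 livers r was 0.96 for Myc and 0.13 for Gadd45b, and the median over all rows tested was 0.48. Leaving out for each gene the 2 livers farthest from the median total deviation gave 0.92 for Myc, 0.76 for Jun, 0.57 for Junb and -0.14 for Ier3, whose r over all 20 livers was 0.21.

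**Figure D3:**
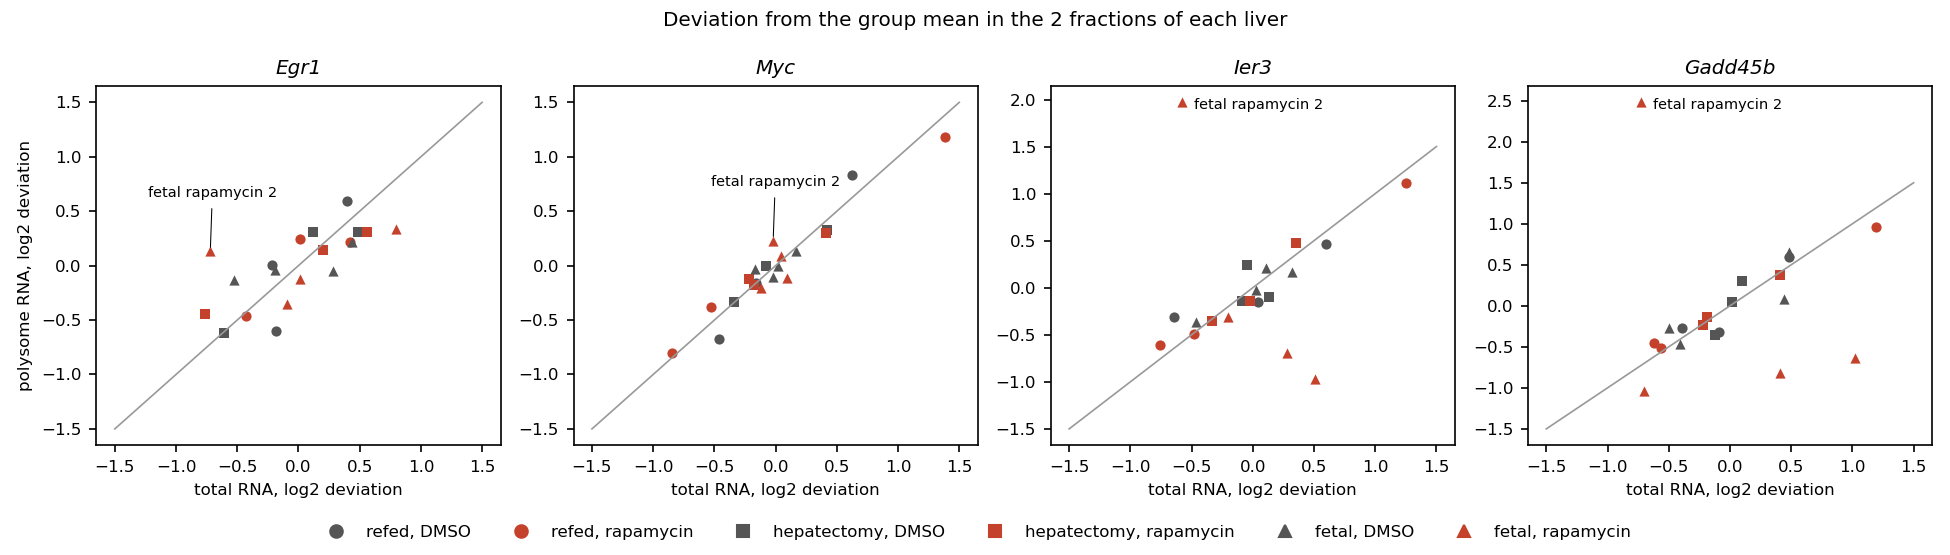
Each point is a liver, placed by the log2 deviation of its total RNA array (horizontal) and polysome array (vertical) from their group means; the line marks equal deviations. Adult livers lie near the line in all 4 genes, and fetal rapamycin 2 lies far above it for Ier3 and Gadd45b.

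Between the genes, the deviations over the 20 total RNA arrays correlated positively in all 45 pairs, with a median r of 0.61 and a range of 0.05 to 0.95. In polysome RNA the median was also 0.61, and it was 0.56 without fetal rapamycin liver 2. The same figures were not computed for pairs of other genes. Ier3 had the highest median r with the other 9 genes in total RNA (0.78), and Egr1 the lowest (0.18). In polysome RNA the median r of Egr1 was 0.33 and that of Fos 0.36, and without fetal rapamycin liver 2 it was 0.32 and 0.19, Fos then being the lowest. The genes outside the set whose deviations followed the mean of the 10 most closely over the 20 total RNA arrays were Ccl19 (r = 0.96), Rnd1 (0.93), Rhob (0.92), Des (0.90) and Kcnj8 (0.89), of which Rhob is itself an immediate early gene and Des a stellate cell marker. Without the 2 livers farthest from the median, refed rapamycin 2 and 3, these were 0.91, 0.86, 0.85, 0.80 and 0.80. Over the 12 group means the closest were Retreg2 (0.89), Pank1 (0.89), Peli2 (0.87), Zfp36 (0.86) and Mbtps1 (0.85), where Zfp36, an mRNA decay factor, is also an immediate early gene. Without the 2 groups farthest from the median these were 0.84, 0.83, 0.85, 0.89 and 0.78.

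The first comparison asked whether rapamycin, given before feeding, changed the genes in refed livers. None of the 10 was called in polysome or in total RNA, in fits where 0% of all rows were called in each. All 10 had a higher mean with rapamycin in both fractions, with a median difference of 0.76 in polysome RNA and 0.97 in total RNA, against medians of 0.00 and 0.03 over all rows tested. At an unadjusted limma p under 0.05 there was 1 gene in polysome RNA (4.84% of all rows) and 4 in total RNA (16.9% of all rows). Without rapamycin liver 2 the medians were 0.29 and 0.31, with 10 and 8 genes higher. Since the 10 genes move together within a liver, their 10 equal signs do not count as 10 separate observations.

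Egr1 differed most clearly from the spread between livers. Its polysome values were 9.68, 10.87 and 10.29 with DMSO and 12.10, 12.13 and 11.42 with rapamycin. In total RNA they were 10.05, 10.62 and 10.01 against 11.96, 11.55 and 11.11. In both fractions all 3 rapamycin livers lay above all 3 DMSO livers. The difference was 1.60 ± 0.32 in polysome RNA, 3.04-fold (limma adjusted p = 0.405), and 1.32 ± 0.32 in total RNA, 2.49-fold (adjusted p = 0.237). Its p ranked 11 of 10860 in polysome RNA and 79 in total RNA. When the spread was estimated from all 40 arrays, Egr1 in total RNA was called (limma adjusted p = 0.0424), where 3.21% of all rows were. Without total DMSO liver 2 it was also called, at an adjusted p of 0.02 by limma, where 16.2% of all rows were. The only other gene without overlap in refed livers was Fos, at 7.03, 6.87 and 6.92 against 7.33, 7.14 and 7.12 in polysome RNA and at 7.08, 7.07 and 7.03 against 7.40, 8.01 and 7.31 in total RNA. That made 2 of 10 genes higher without overlap in each fraction, where 8.66% of all rows were in polysome RNA and 8.6% in total RNA.

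The AP-1 subunit Junb had a difference as large as that of Egr1 but rested on overlapping livers. Its total RNA values were 8.0, 8.32 and 10.66 with DMSO and 10.27, 11.54 and 9.27 with rapamycin, a difference of 1.37 ± 0.88 (limma adjusted p = 0.44). DMSO liver 3 lay above 2 of the 3 rapamycin livers. Jun was at 9.0, 9.22 and 10.29 against 9.90, 11.13 and 9.68 (0.73 ± 0.51), with the same DMSO liver high. Maff differed by 0.21 ± 0.23 in total RNA, less than its SE.

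The stress repressor Atf3 was at 6.97, 7.66 and 8.48 with DMSO and at 7.76, 11.21 and 7.57 with rapamycin in total RNA, a difference of 1.15 ± 1.00 that came from rapamycin liver 2. Myc was at 7.36, 7.66 and 8.45 against 8.61, 10.52 and 8.30 (1.32 ± 0.64, limma adjusted p = 0.325). Ier3 was at 9.0, 9.68 and 10.23 against 10.44, 12.16 and 10.15 (1.28 ± 0.57, limma adjusted p = 0.289). In these 3 genes the rapamycin mean was raised most by liver 2, and at least 1 DMSO liver overlapped the rapamycin livers. Gadd45b differed by 0.78 ± 0.52 and Ier2 by 0.60 ± 0.26 in total RNA. With rapamycin liver 2 and DMSO liver 3 both left out, a choice made after seeing the values, 10 of 10 genes were higher in polysome RNA (median 0.68) and 9 of 10 in total RNA (median 0.56). The mean of 7 endothelial markers was 10.28 to 10.32 with DMSO and 10.45 to 10.52 with rapamycin in total RNA, with 0 of the 7 called, and its part in the values of the 10 genes was not tested. In the fit without both livers Junb differed by 1.64 ± 0.34 in polysome RNA and Egr1 by 1.49 ± 0.44, and none of the 10 was called.

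**Figure D4:**
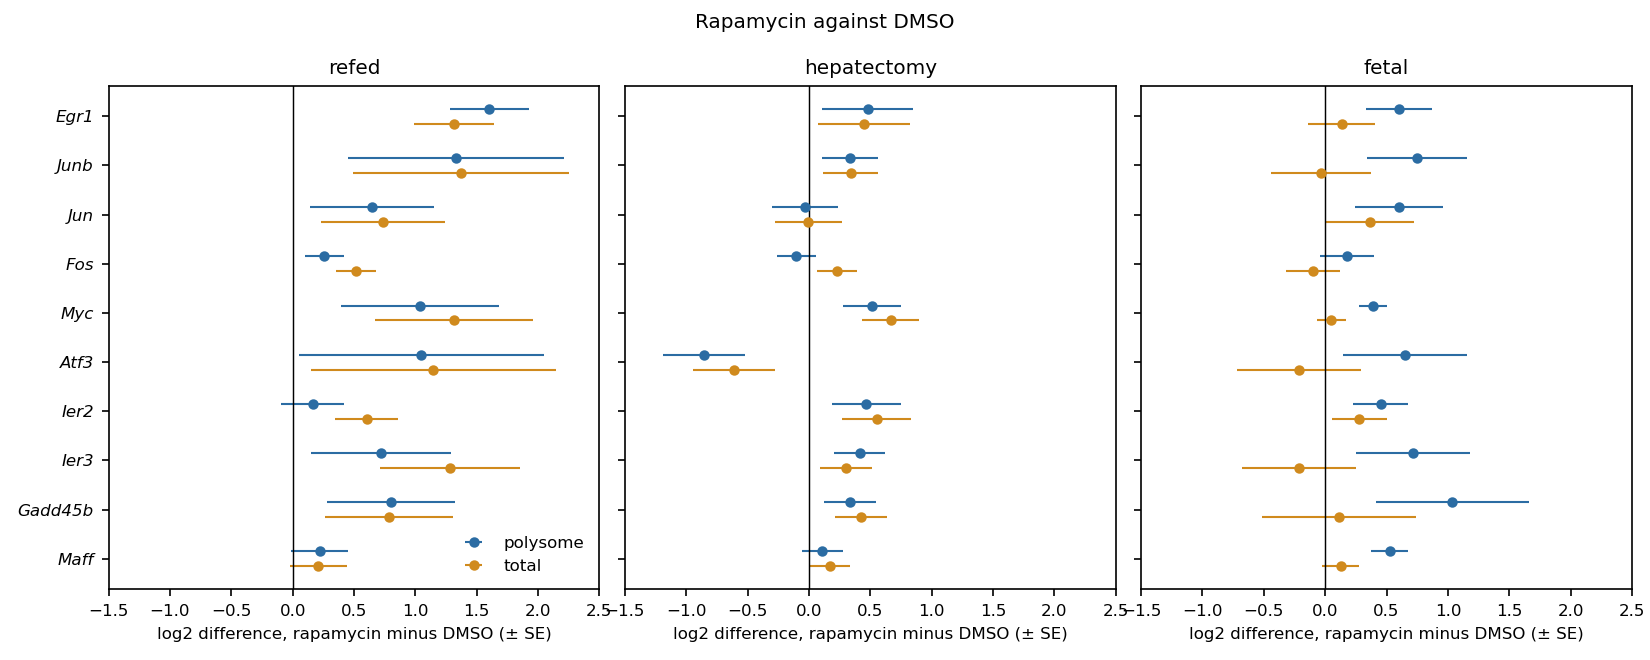
Points are the log2 difference of rapamycin minus DMSO (horizontal axis) for each gene (vertical axis) in each model, blue for polysome and orange for total RNA, and bars are 1 SE of the limma fit. All 20 refed points lie above 0, Atf3 lies below 0 in hepatectomy livers, and the fetal differences are larger in polysome than in total RNA for all 10 genes; no gene was called.

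After partial hepatectomy, when 6.35% of all rows were called in polysome RNA and 5.01% in total RNA, none of the 10 genes was called in either. The median difference over the 10 genes was 0.34 in polysome RNA, against -0.01 over all rows, and 0.32 in total RNA, against -0.01. The polysome median was 0.16 without DMSO liver 1 and 0.13 without rapamycin liver 1, and the total RNA median was 0.13 without rapamycin liver 1. In polysome RNA 7 of the genes had a higher mean and 3 a lower one, and in total RNA 8 and 2. At an unadjusted limma p under 0.05 there were 2 genes in polysome RNA (25.5% of all rows) and 1 in total RNA (23.6% of all rows), shares near or under the background.

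Myc was at 9.10, 9.76 and 9.43 with DMSO and 10.25, 9.77 and 9.83 with rapamycin in polysome RNA, and at 8.81, 9.57 and 9.07 against 10.22, 9.63 and 9.59 in total RNA. All rapamycin livers lay above all DMSO livers in both fractions, by narrow margins. The difference was 0.52 ± 0.23 (limma adjusted p = 0.192) and 0.67 ± 0.23 (limma adjusted p = 0.113). Gadd45b was the other gene without overlap in total RNA, at 8.50, 8.64 and 8.71 against 9.45, 8.82 and 8.85 (0.42 ± 0.21). That is 1 gene of 10 in polysome RNA and 2 in total RNA, where 11.3% and 13% of all rows were higher without overlap.

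Atf3 went the other way. It was at 8.10, 9.13 and 9.17 with DMSO and 8.28, 7.90 and 7.65 with rapamycin in polysome RNA, and at 7.61, 8.68 and 8.0 against 7.90, 7.58 and 6.99 in total RNA. The difference was -0.86 ± 0.33 in polysome RNA (limma adjusted p = 0.136) and -0.61 ± 0.33 in total RNA. DMSO liver 1, the lowest of its group, overlapped the rapamycin livers. Without polysome DMSO liver 1 the difference was -1.21 and was called (limma adjusted p = 0.028), in a fit that called 15.5% of all rows. Egr1, at 10.97, 11.90 and 11.89 against 12.37, 12.20 and 11.62 in polysome RNA, differed by 0.48 ± 0.37, and Jun by -0.03 ± 0.27. Markers of other cell types were also higher with rapamycin after hepatectomy: 7 of 7 endothelial markers had a higher mean in each fraction, and 2 of them, Emcn and Tek, rose in both. The mean of the endothelial markers was 9.46 to 10.03 with DMSO and 10.09 to 10.30 with rapamycin in polysome RNA, and it was 10.04 to 10.37 against 10.56 to 10.75 in total RNA. The macrophage gene Adgre1 (0.67) and the stellate gene Pdgfrb (0.50) rose in polysome RNA. The mean of 9 macrophage markers was 9.78 to 10.30 with DMSO and 10.37 to 10.49 with rapamycin in polysome RNA. In total RNA these ranges overlapped, at 10.31 to 10.67 and 10.46 to 10.68. That of 7 stellate and fibroblast markers was 8.63 to 9.21 against 9.07 to 9.31 in polysome RNA, and 9.31 to 9.71 against 9.84 to 9.96 in total RNA. The part of these markers in the values of the 10 genes was not tested.

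In fetal livers 0% of all rows were called in polysome and in total RNA, and none of the 10 genes was. All 10 had a higher mean with rapamycin in polysome RNA, with a median difference of 0.60 against -0.03 over all rows, of which 41.8% were higher. In total RNA 6 were higher and 4 lower, with a median of 0.08 against -0.02, and 0 were higher without overlap, where 0.304% of all rows were. All 7 granulocyte markers had a lower mean with rapamycin in fetal total RNA, with a median of -0.49 and 0 called, and their mean level was 10.71 to 11.08 with DMSO against 10.07 to 10.57. In polysome RNA, where the 10 genes were higher, 5 of the 7 had a lower mean, with a median of -0.07 and 0 called, and their level was 10.84 to 11.17 against 10.33 to 10.79. The part of granulocytes was not tested in either fraction. At an unadjusted limma p under 0.05 there were 3 genes in polysome RNA, where 2.27% of all rows were, and 0 in total RNA, where 1.83% of all rows were. Without the polysome array of rapamycin liver 2 the polysome median fell to 0.26, and 9 of 10 genes were higher. The total RNA median was -0.03 without DMSO array 1, DMSO array 2 or rapamycin array 3.

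In fetal polysome RNA, 3 of the 10 genes were higher with rapamycin without overlap between the 4 and 4 arrays, where 0.47% of all rows were. Myc was at 9.92, 9.95, 10.08 and 9.85 with DMSO and at 10.43, 10.57, 10.22 and 10.13 with rapamycin (0.39 ± 0.12, limma adjusted p = 1). Egr1 was at 10.39, 10.31, 10.40 and 10.66 against 11.38, 11.17, 10.69 and 10.92 (0.60 ± 0.27). Ier2 was at 8.33, 8.25, 8.48 and 8.39 against 8.64, 9.32, 8.72 and 8.57 (0.45 ± 0.22). In none of the 3 was liver 2 the lowest rapamycin array, so it did not set the gap between the groups. Maff was at 6.97, 7.16, 6.63 and 6.92 against 7.43, 7.91, 7.30 and 7.14 (0.53 ± 0.15), with rapamycin array 4 just under the highest DMSO array. By p from limma Maff ranked 5 of 10860 rows, and Myc 15, both with an adjusted p of 1. In total RNA the same genes differed by 0.05 ± 0.12 (Myc), 0.13 ± 0.27 (Egr1), 0.28 ± 0.22 (Ier2) and 0.13 ± 0.15 (Maff).

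Gadd45b, Ier3, Junb and Atf3 had the largest fetal polysome differences, at 1.04 ± 0.62, 0.72 ± 0.47, 0.75 ± 0.40 and 0.65 ± 0.51, and each rested on rapamycin array 2. Jun was at 8.75, 8.46, 9.54 and 9.55 against 9.07, 10.15, 9.83 and 9.65 (0.60 ± 0.36). Fos was at 6.51, 6.81, 6.86 and 6.92 against 6.69, 7.25, 6.93 and 6.96 (0.18 ± 0.22). The groups overlapped in all 6 of these genes. Taken as same-numbered pairs, the rapamycin array was the higher in 4 of 4 pairs for Egr1, Jun, Fos, Myc, Ier2 and Maff, in 3 for Junb, Atf3 and Gadd45b and in 2 for Ier3. The 4 differences of Jun were 0.32, 1.69, 0.29 and 0.10. With the pairs as a block 5 of the 10 genes had an unadjusted p under 0.05 (Egr1, Jun, Myc, Ier2 and Maff), where 7.21% of all rows did, and none was called, as were 0% of all rows. The lowest limma adjusted p among them was 0.397 (Myc and Maff).

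Whether rapamycin acted differently on polysome and total RNA was tested as an interaction. None of the 10 genes was called in any model, where 0% of all rows were called in each. In fetal livers the rapamycin difference was larger in polysome than in total RNA for all 10 genes, with a median of 0.43 against -0.01 over all rows, and with 0.21 when polysome rapamycin array 2 was left out. Myc had the smallest p of the 10 (0.34 ± 0.16, limma adjusted p = 1), and 0 of the 10 had an unadjusted p under 0.05. In refed and hepatectomy livers 7 and 8 genes had the smaller difference in polysome RNA, and the medians of -0.09 and -0.07 changed sign when single arrays were left out (-0.51 to 0.32 and -0.27 to 0.08). With the liver as a block, again none of the 10 was called, and 1 gene in each model had an unadjusted p under 0.05, where 8.37%, 5.43% and 1.59% of all rows did in refed, hepatectomy and fetal livers. These genes were Ier3 in refed (-0.56 ± 0.19, limma adjusted p = 0.535), Fos in hepatectomy (-0.33 ± 0.15, limma adjusted p = 0.872) and Myc in fetal livers (0.34 ± 0.15, limma adjusted p = 1). A test of equal rapamycin differences in the 3 models called none of the 10 genes in polysome RNA, where 0.0368% of all rows were called, or in total RNA, where 0.424% were. Egr1 was nearest, with limma adjusted p-values of 0.935 and 0.337, and no gene had an unadjusted p under 0.05.

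Polysome RNA was compared with total RNA in DMSO livers, as the share of each mRNA among polysomal mRNAs relative to its share in the tissue. Without the liver in the model none of the 10 genes was called, where 24.7% (refed), 43.8% (hepatectomy) and 14.5% (fetal) of all rows were. With the liver as a block, which both fractions share, 4 of the 10 were called in refed livers and 4 in hepatectomy livers, where 42.5% and 61% of all rows were called, and none in fetal livers, where 28% were. The counts lie near or under these backgrounds.

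Myc was called higher in polysome RNA in both adult models with the liver as a block. In refed livers its polysome values of 7.84, 8.34 and 9.34 stood above the total RNA values of 7.36, 7.66 and 8.45 of the same livers (0.68 ± 0.12, limma adjusted p = 0.00219), and after hepatectomy it differed by 0.28 ± 0.08 (limma adjusted p = 0.00683). Gadd45b was also called higher in both, by 0.50 ± 0.13 (limma adjusted p = 0.0105) and 0.37 ± 0.09 (limma adjusted p = 0.00309). Ier3 was called lower in both, with differences of -0.41 ± 0.13 (limma adjusted p = 0.0317) and -0.50 ± 0.09 (limma adjusted p = 0.000307). After hepatectomy its polysome values of 10.83, 10.45 and 10.49 all lay below the total RNA values of 11.04, 11.01 and 11.23, as in 18.7% of all rows. Ier2 was called higher in refed livers alone (0.49 ± 0.14, limma adjusted p = 0.0186) and Atf3 after hepatectomy alone (0.70 ± 0.12, limma adjusted p = 0.000227). The difference of these values between the models was not tested. In fetal livers Myc was the nearest to the threshold (limma adjusted p = 0.0566), with all 4 polysome arrays above all 4 total RNA arrays, as in 14.2% of all rows.

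The models differed in age, surgery, feeding and time after injection together, so their DMSO total RNA is compared as 3 kinds of liver, and the 3 comparisons share their groups. Between hepatectomy and refed livers 3 of the 10 genes were called, all higher after hepatectomy, where 17.5% of all rows were called and 12.4% were called higher. Ier3, at 11.04, 11.01 and 11.23 against 9.0, 9.68 and 10.23, rose by 1.46 ± 0.52, 2.75-fold (limma adjusted p = 0.0478). Myc, at 8.81, 9.57 and 9.07 against 7.36, 7.66 and 8.45, rose by 1.33 ± 0.41, 2.51-fold (limma adjusted p = 0.0237). Egr1, at 10.88, 11.98 and 11.62 against 10.05, 10.62 and 10.01, rose by 1.27 ± 0.36, 2.41-fold (limma adjusted p = 0.0138). In each of the 3 genes, and in Fos, the hepatectomy livers were higher without overlap, where 16.4% of all rows were. The median over the 10 genes was 0.55, against 0.02 over all rows, and it was 0.33 without refed DMSO liver 1 and 0.91 without refed DMSO liver 3. None of the 3 was called when the total RNA array of refed DMSO liver 1, hepatectomy DMSO liver 2 or hepatectomy DMSO liver 3 was left out. In polysome RNA only Egr1 was called (1.31 ± 0.36, limma adjusted p = 0.0132), where 12.7% of all rows were. Junb, at 10.20, 10.02 and 9.89 against 8.0, 8.32 and 10.66, was not called, and became so without refed DMSO liver 3 (1.88 ± 0.63, limma adjusted p = 0.0483, with 11.6% of all rows called), when Egr1 no longer was. Ier3 also lost its call without refed DMSO liver 2 or hepatectomy DMSO liver 1. The macrophage genes Marco (1.31) and C1qb (0.69) rose after hepatectomy and the stellate gene Dcn (-2.13) fell. The mean of 9 macrophage markers was 10.31 to 10.67 after hepatectomy against 9.96 to 10.34 in refed livers. That of 7 stellate and fibroblast markers was 9.31 to 9.71 against 9.56 to 9.89. These ranges overlapped, and the shift of the stellate list was much smaller than that of Dcn. The part of these cell types was not tested.

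Between fetal and refed livers Myc was called, where 47.1% of all rows were called and 28.1% were called higher in fetal livers. It was at 9.49, 9.68, 9.83 and 9.64 in fetal livers, all above the refed values as in 24.4% of all rows, a difference of 1.83 ± 0.39 and 3.57-fold (limma adjusted p = 0.000198). The other 9 genes were not called, and their differences ran from -0.61 ± 0.41 (Jun) to 0.45 ± 0.34 (Egr1). Between fetal and hepatectomy livers Ier3 and Jun were called lower in fetal livers, where 36.9% of all rows were called and 17% were called lower. Ier3, at 9.48, 9.0, 9.56 and 9.77, fell by 1.64 ± 0.48 on the log2 scale (limma adjusted p = 0.00745), and Jun, at 8.18, 8.25, 9.58 and 9.59 against 9.66, 10.67 and 10.09, by 1.24 ± 0.41 (limma adjusted p = 0.018). Both genes, and Junb, were lower in fetal livers without overlap, where 21.1% of all rows were. The call of Jun was lost without fetal DMSO liver 1 or 2 or hepatectomy DMSO liver 2. In the same fetal arrays 1 to 4 the erythroid mean was 12.44, 12.42, 11.77 and 11.75. The stellate and fibroblast mean was 9.11, 9.10, 9.80 and 9.71. Arrays 1 and 2 were thus set apart from 3 and 4 in these markers as in Jun, and the part of this split was not tested. Egr1 differed by -0.82 ± 0.34 (limma adjusted p = 0.0586) in total RNA. With the replicate number as a block, which pairs arrays in the fetal model and is only a number in the hepatectomy model, it was called (-0.82 ± 0.30, limma adjusted p = 0.0307), where 45.2% of all rows were. It was also called in polysome RNA (-1.15 ± 0.34, limma adjusted p = 0.00544), where 50.2% of all rows were. The 6 erythroid and 7 granulocyte markers of fetal livers rose against both adult livers, with the ranges given above, and their part in these differences was not tested.

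**Figure D5:**
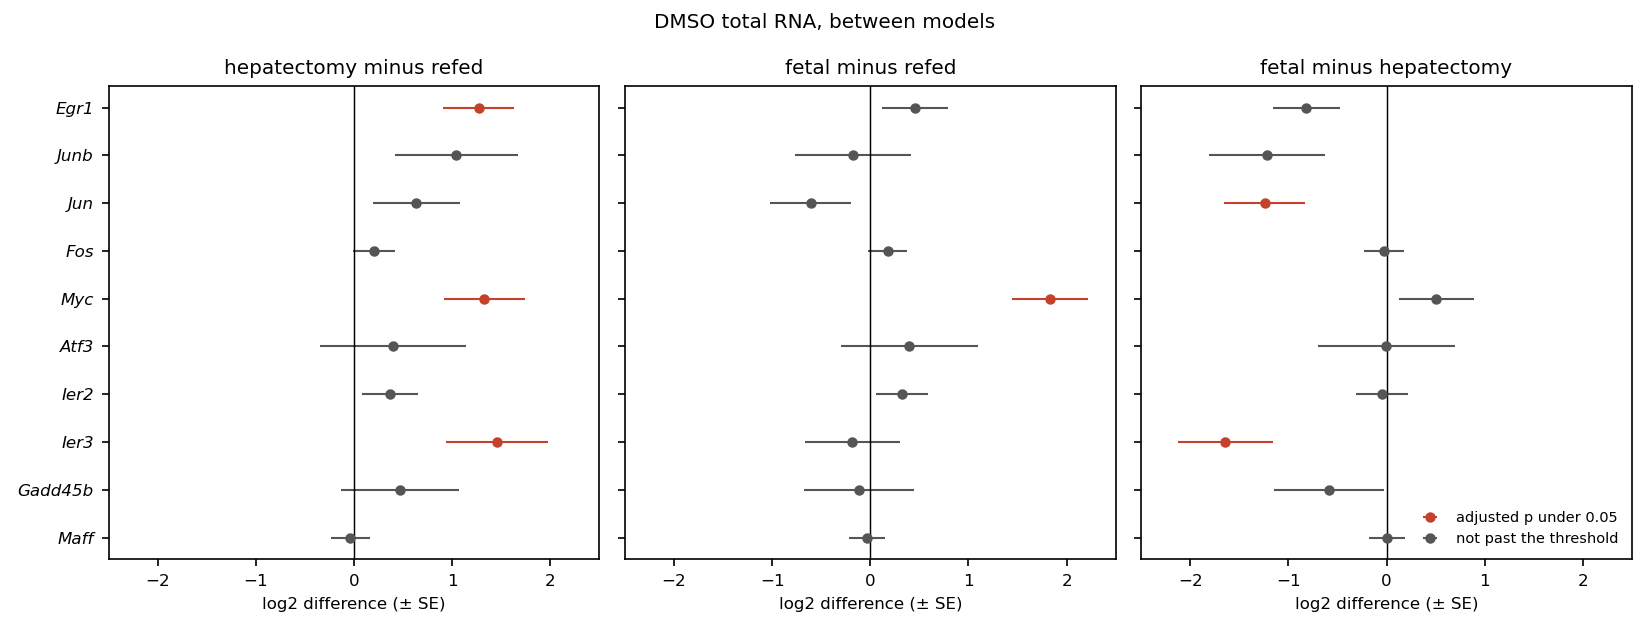
Points are log2 differences between models in DMSO total RNA (horizontal axis) for each gene (vertical axis), with 1 SE of the limma fit over all 40 arrays; red marks genes past the threshold. Egr1, Myc and Ier3 are red in hepatectomy minus refed, Myc in fetal minus refed, and Jun and Ier3 in fetal minus hepatectomy.

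Genes around the 10 were read from 9 lists of 85 tested genes (partners of AP-1, the EGR family and its corepressors, SRF and its cofactors, the MAP kinase cascade, feedback inhibitors, other immediate early genes, the GADD45 family, the MYC network and MYC target genes). Rapamycin called 0 of the 85 in refed and in fetal livers in either fraction. After hepatectomy it called 6 of the 85 in each fraction, 7.06% of them, near the 6.35% and 5.01% of all rows in polysome and total RNA. In polysome RNA Spry1 (0.55), an inhibitor of receptor signalling to the MAP kinases, and the immediate early transcription factors Klf2 (0.39) and Klf10 (0.39) rose, while Mxd3 (-0.59), an antagonist of MYC, Cebpb (-0.45) and the stress cytokine Gdf15 (-0.79) fell. In total RNA Spry1 (0.71), Dusp6 (0.81), a phosphatase of the kinase ERK, Klf2 (0.42) and Klf10 (0.44) rose, and Max (-0.35), the partner of MYC, and Tob1 (-0.37) fell. Of 10 MYC target genes, 0 were called after hepatectomy. All 10 had a lower mean with rapamycin in both fractions, with medians of -0.24 and -0.33 against -0.01 over all rows, beside the higher mean of Myc itself.

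Between hepatectomy and refed livers 9 of the 85 were called, 5 higher and 4 lower, which is 10.6% of them against 17.5% of all rows, and the immediate early genes Ccn1 (1.08) and Klf10 (0.67) and the feedback gene Dusp6 (0.84) were among those that rose. Between fetal and hepatectomy livers 31 of the 85 were called, 36.5% of them against 36.9% of all rows, and 7 of the 25 other immediate early genes fell against 1 that rose, 32% of them in all. Those that fell in fetal livers included Ccn1 (-1.30), Socs3 (-2.03) and Plk3 (-0.98), and the kinase gene Pim1 (1.61) rose. Between fetal and refed livers 29 were called, 18 higher and 11 lower, 34.1% of the 85 against 47.1% of all rows. The shares lie near or under the background in all 3 comparisons. Mxd1, which encodes another MAX partner that opposes MYC, rose in fetal livers by 2.14 against refed and by 2.57 against hepatectomy livers.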

How the data were processed

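The deposited values are probe intensities on a linear scale that the authors normalized with RMA, per the submitters' processing notes. Not given in the sources used here are the RMA settings, the build and which arrays were normalized together. RMA equalises arrays, so a shift common to all mRNAs cannot be seen. Precision is limited by the number of arrays. Intensities were log2-transformed with no pseudocount. The test took 10860 rows, those with a symbol and a mean log2 of 6.70 or more, the 30th percentile over named rows.

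Groups and replicate numbers came from the titles. Fits used limma 3.58.1 in R 4.3.3 with an intensity trend, on the arrays of a model (within models) or on all 40 (between models), two-sided, with Benjamini-Hochberg adjustment at 0.05. The fits were tested on simulated data. Other settings tried were the filter, the trend, cyclic loess, the arrays fitted, replicate blocks and leaving out single arrays. Same-numbered polysome and total arrays were taken as fractions of 1 liver. Their deviations correlated at 0.46 to 0.82 in refed, 0.51 to 0.72 in hepatectomy and 0.33 to 0.69 in fetal livers. Same-numbered DMSO and rapamycin arrays correlated at 0.42 to 0.75 in the fetal model, where the numbers were taken as pairs, and at -0.62 to 0.39 in the adult models, where they were not. In the fetal model the correlation cannot show that both fractions came from 1 liver, since arrays of different livers correlated as highly. The animal numbers in the fetal labels are shared by DMSO and rapamycin arrays, so they do not identify a single liver either. All 10 members were described, and the 5 closest genes by each correlation were named. Up to 4 members past the threshold, smallest p first, could be named from each other list. The members and lists were chosen with earlier results of these data known. The p-values rest on the spread between arrays within groups, pooled over all groups of the fit and adjusted by limma across rows. With the liver as a block they rest on how the polysome minus total difference varied between livers. Without a block, the fits counted both fractions of a liver as separate arrays. Fewer livers than arrays stand behind these p-values, so they can be smaller than the number of livers allows.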

Additional observations from a re-analysis of the deposited data

Results flagged for a closer look

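In groups of 4 arrays, the gap between the extreme array and its nearest neighbour was compared with the range of the group, and 3 of 40 such groups exceeded Dixon's critical ratio. Chance alone passes it in about 1 of 20 groups. Polysome array 2 of the fetal rapamycin group stood apart for Junb (ratio 0.958; 11.36 against 9.28 to 9.37) and for Gadd45b (ratio 0.883; 12.04 against 8.52 to 8.93). Polysome array 2 of the fetal DMSO group stood apart for Atf3 (ratio 0.847; 9.31 against 8.15 to 8.33).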

How the results depend on the processing

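Of 267 alternative counts of called genes over 17 comparisons, 252 stayed within 1.5 times the count reported. Most of these comparisons had a reported count of 0, and a count that stayed at 0 was taken as unchanged. Only the comparisons between models had calls that could be lost. With the liver as a replicate block, polysome against total RNA called 4 genes in refed and 4 in hepatectomy livers. The block changed no other count by that much, and the pairing by number in the fetal model left 0 called by rapamycin. Fitting all 40 arrays gave 1 for rapamycin in refed total RNA. Cyclic loess gave 1 (Ier3) for polysome against total RNA in hepatectomy livers, and polysome in place of total RNA gave 1 for hepatectomy against refed livers. Leaving out single arrays gave 0 to 1 for rapamycin in refed total RNA and in hepatectomy polysome RNA, 0 to 2 for polysome against total RNA in hepatectomy livers, 0 to 3 for hepatectomy against refed and 1 to 3 for fetal against hepatectomy livers. Of 2120 alternative values of single genes, 0 calls reversed, 19 were lost, 20 were gained and 154 uncalled values changed sign. The call of Ier3 between hepatectomy and refed livers was also lost with no filter (limma adjusted p = 0.0619) and with cyclic loess (limma adjusted p = 0.0636). The cause was not tested. A second row per gene could not be tried, since each gene had 1. With 3 or 4 livers a group and this spread, differences under the SE given are not resolved, and many differences above it were not called either.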

Other observations

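The rows farthest above their group mean on polysome array 2 of the fetal rapamycin group, chosen after the values were seen, included genes known to respond to inflammatory signals. The deviation was 4.58 for Nos2, the inducible nitric oxide synthase, 3.58 for the chemokine gene Cxcl1, 3.18 for Cxcl10 and 2.74 for Ccl2, beside 3.33 for Rnd1 and 2.48 for Gadd45b. In the same-numbered total RNA array they deviated by -0.37 (Nos2), -0.11 (Cxcl1), 0.30 (Cxcl10), 0.00 (Ccl2), -0.59 (Rnd1) and -0.73 (Gadd45b). Rnd1 is also 1 of the 5 genes whose total RNA deviations followed the mean of the immediate early genes most closely.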
